A study of Mus musculus with 48 samples.

Results

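Chemokines and their receptors were followed through 13 purified populations of mouse pancreas cells. The genes were taken by name, as every gene whose only platform symbol begins with Ccl, Cxcl, Ccr or Cxcr and a digit, together with Cx3cl1, Cx3cr1, Xcl1 and Xcr1. This gave 50 of the 18194 genes that the array names, 33 ligands and 17 receptors, measured by 78 of its 45101 probes. Each gene was represented by its brightest probe over all 48 arrays. Values are log2 expression from Affymetrix arrays, and a level of 100 on the linear scale (6.64 on the log2 scale) served as the limit below which a value was treated as low.

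All mice had a CD-1 background, and 12 populations came from wild type animals, most of them carriers of a fluorescent reporter. Adult (8-12wk) duct cells (n = 4) were sorted with an antibody to CD133. Beta cells, sorted for GFP driven by the mouse insulin promoter, came from E15.5 (n = 4), E17.5 (n = 3), P0 (n = 3), P15 (n = 4) and 8-12wk mice (n = 4). Alpha cells, sorted for Venus driven by the glucagon gene, came from 8-12wk (n = 5) and P0 mice (n = 4). Neurog3-null cells (n = 4), labelled as stage E15.5 and as Ngn3-null or Neurog3-null in genotype, were GFP+ cells of embryos in which both copies of Neurog3 carry eGFP. Endocrine progenitors (n = 3), acinar cells (n = 3) and Progenitor cells (n = 3) came from Neurog3-eGFP transgenic pancreas at E15.5 and were separated with antibodies to CD133, CD24 and CD49f. Sox9+ cells (n = 4) came from the E11.5 pancreas of Sox9-eGFP embryos. Each sample is a pool of several to many pancreata, GFP can outlast the cell state that it reports, and the study sorted against CD45 and Ter119 to leave out blood cells. The labels do not say whether replicates were separate litters or days, so p-values measure the spread between these samples.

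Chemokines are small secreted proteins that direct the movement of cells along a gradient, and their receptors are G protein-coupled receptors of the responding cell. Inflammatory ligands such as Cxcl1, Cxcl2 and Ccl2 are induced by NF-kB signalling in many cell types and draw neutrophils or monocytes. Homeostatic ligands such as Cxcl12, which signals through Cxcr4, guide cells during development, and islet macrophages are a resident source and target of chemokines in the pancreas.

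Promoters are shown for neutrophil-attracting ligands that lie close together on chromosome 5, where Cxcl3, Cxcl15, Cxcl1 and Cxcl2 are neighbours in RefSeq order. The 250 bases before the start of Cxcl1, Cxcl2 and Cxcl3, all 3 highest in duct cells, and of Cxcl10, an interferon-induced ligand that is also highest there, are shown from RefSeq on GRCm38.p6. Capitals mark GGAATTTCC, letters found within NF-kB sites, in the first 3 and, read from the other strand as GGAAATTCC, in the fourth, which also holds AAAGTGAAA, the other strand of TTTCNNTTT, letters found within interferon-stimulated response elements.
Cxcl1 (chr5:90890995-90891244, + strand): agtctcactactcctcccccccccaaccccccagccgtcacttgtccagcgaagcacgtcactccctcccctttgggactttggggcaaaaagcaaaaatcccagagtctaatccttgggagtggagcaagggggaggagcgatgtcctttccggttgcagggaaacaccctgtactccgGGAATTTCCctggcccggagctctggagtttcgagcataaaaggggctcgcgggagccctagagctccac
Cxcl2 (chr5:90903649-90903898, + strand): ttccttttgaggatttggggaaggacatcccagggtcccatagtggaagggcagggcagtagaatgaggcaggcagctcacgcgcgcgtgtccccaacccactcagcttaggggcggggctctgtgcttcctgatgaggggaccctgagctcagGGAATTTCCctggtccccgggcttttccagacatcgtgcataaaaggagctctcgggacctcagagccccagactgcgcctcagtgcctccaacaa
Cxcl3 (chr5:90785851-90786100, + strand): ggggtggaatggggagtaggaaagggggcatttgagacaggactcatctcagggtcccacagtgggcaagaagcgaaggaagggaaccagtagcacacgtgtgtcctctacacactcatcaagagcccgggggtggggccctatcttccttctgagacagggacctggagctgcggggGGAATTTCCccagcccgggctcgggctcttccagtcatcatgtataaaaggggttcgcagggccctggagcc
Cxcl10 (chr5:92348890-92349139, - strand): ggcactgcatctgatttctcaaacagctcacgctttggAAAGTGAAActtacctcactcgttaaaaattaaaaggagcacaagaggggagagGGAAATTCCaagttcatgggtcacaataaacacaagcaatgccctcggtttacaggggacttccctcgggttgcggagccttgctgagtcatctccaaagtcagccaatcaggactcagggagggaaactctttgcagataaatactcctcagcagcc
The NF-kB letters lay 70 to 62 bases before the start of Cxcl1, 96 to 88 before Cxcl2, 72 to 64 before Cxcl3 and 158 to 150 before Cxcl10. On either strand, they occurred in 94 of 32851 promoters of this length (0.286%) and in 5 of the 41 promoters found for 37 of the 50 genes, those of Cxcl1, Cxcl2, Cxcl3, Cxcl10 and Ccr3. TTTCNNTTT on either strand occurred in 3079 promoters (9.37%), among them those of Cxcl10, Cxcl14, Ccl28 and Ccr1, and TATAAA on the sense strand in 2494 (7.59%), 10 of them of chemokine genes. A match is a description of these letters only.

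The arrays resembled each other in overall level, with medians from 6.58 to 6.88 and 49.1% to 52.6% of probes above 100. The 7 measured beta markers averaged 12.46 to 13.44 in the 5 beta populations and at most 11.72 elsewhere, the 6 duct markers were highest in duct cells (12.40) and the 8 acinar markers in acinar cells (13.50). The 3 alpha markers averaged 11.37 and 11.41 in adult and P0 alpha cells but also 11.32 in E15.5 beta cells, 10.98 in endocrine progenitors and 10.92 in E11.5 Sox9 cells. Markers of other cells were high in several populations too. Acinar markers averaged 12.74 in duct cells and 12.51 in both adult beta and Neurog3-null cells. In P0 beta cells mesenchyme markers averaged 12.45 and endothelial markers 10.92. Neurog3, the targeted gene, measured 10.97, 10.29, 10.70 and 10.32 in Neurog3-null cells, against 13.34, 13.41 and 13.44 in endocrine progenitors, and whether its probe lies in the replaced part of the gene is not given in the sources used here. Markers of leukocytes differed between populations in spite of the CD45 gate. All 12 macrophage markers were above 100 in duct cells (mean 11.62, arrays from 10.93 to 12.14), Neurog3-null cells (11.36, from 10.85 to 12.08), adult beta cells (10.73, from 10.30 to 11.22), P0 beta cells and E17.5 beta cells (8.79), but 2 of 12 in adult alpha cells (5.52, from 5.20 to 5.82) and in E11.5 Sox9 cells (5.14) and 3 of 12 in endocrine progenitors (5.79, from 5.60 to 5.98). The 10 general leukocyte markers were all above 100 in Neurog3-null, duct and adult beta cells (11.18, 10.77 and 10.75) and none was in adult alpha cells (5.12). These lists stand beside the chemokine results throughout, and in such bulk samples more cells of a type and more RNA per cell cannot be told apart. P15 beta replicate 1 stood apart from its group. Its Ptprc, which encodes CD45, measured 7.66, against 4.01, 3.96 and 4.42 in the other P15 beta arrays.

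Of the 50 genes, 34 exceeded 100 in the mean of at least 1 population, 28 ligands and 6 receptors. Duct cells held 27 such genes, adult beta cells and Neurog3-null cells 22 each, P0 beta cells 20, E17.5 beta cells 17, P0 alpha cells 13, E15.5 Progenitor cells 10, P15 beta cells 9 and E15.5 beta cells 7. Adult alpha cells, endocrine progenitors, acinar cells and E11.5 Sox9 cells held 6 each. Duct cells had the highest mean for 21 of the 50 genes, 19 of them above 100, and Neurog3-null cells for 9, 5 of them above 100. Ccl25 and Ccl27a were the 2 genes above 100 in all 13 populations.

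**Figure D1:**
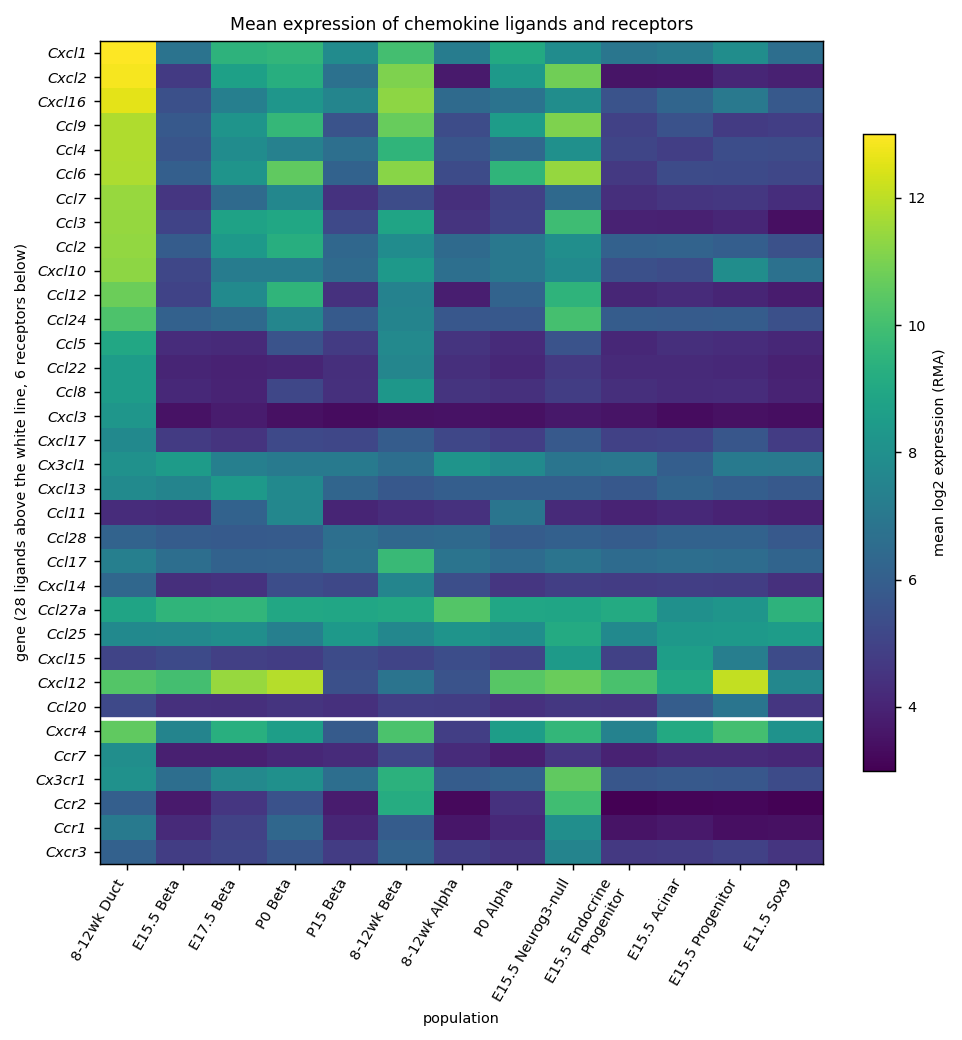
Mean log2 expression (colour) of the 34 chemokine genes above 100 in at least 1 population, with 28 ligands above the white line and 6 receptors below it, in the 13 populations. The duct column is the brightest for 19 of these genes, while Cxcl12 is brightest in E15.5 Progenitor cells and Ccr2 in Neurog3-null cells.

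The other 16 genes stayed below 100 in every population mean. Ccr6, the receptor of Ccl20, and Cxcl11, an interferon-induced ligand of Cxcr3, came nearest, with means of 6.41 in adult beta cells and 6.24 in P15 beta cells. Cxcl11 exceeded 100 in 2 single arrays, duct replicate 1 (7.29) and P15 beta replicate 1 (7.16). The remaining 14 never exceeded 100 in any array by their brightest probe. They include Cxcr2, the main receptor of Cxcl1, Cxcl2 and Cxcl3, whose highest mean was 4.67, in adult beta cells, where 2 arrays (5.39 and 5.90) lay above the other 2 (both 3.70). Cxcl5 (duct replicate 1 at 5.58), Cxcl9, Ccl1, Xcl1, Xcr1, Ccr3, Ccr4, Ccr8, Ccr9, Ccr10, Ccr1l1, Cxcr5 and Cxcr6 make up the rest. A second, on average dimmer, probe exceeded 100 in an array for 2 of these genes. For Cxcl9 it averaged 6.14 in duct cells, with 7.96 in the highest array, while the brighter one averaged at most 4.79, and for Ccr9 it averaged 5.97 in Neurog3-null cells, with 7.66 in the highest array. Tests covered the 36 genes above 100 in at least 1 array, 29 ligands and 7 receptors. A gene that passes through its high population had to differ somewhere, so the counts below are given out of all 50 and are not read as support. The same filter can shift the medians of the tested chemokine genes in comparisons that use such a population, so these medians are not read as support either. Where arrays are said not to overlap, the share of all genes without overlap was not counted, and this too is a description only.

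Cxcl2 and Ccr2, a ligand for neutrophils and the receptor of monocytes for Ccl2, spanned most of the measured range. Cxcl2 measured 13.43, 12.61, 12.66 and 12.84 in duct cells, 11.20, 10.51, 11.29 and 11.26 in adult beta cells, and 10.49, 9.74, 11.38 and 11.72 in Neurog3-null cells. It measured 7.77, 9.69 and 8.54 in E17.5, 8.33, 8.93 and 10.55 in P0 and 8.95, 6.72, 5.31 and 5.99 in P15 beta cells, and 7.84, 8.45, 8.63 and 8.70 in P0 alpha cells. Every duct array thus lay above every other array, whereas adult beta and Neurog3-null cells overlapped, as did E17.5 beta, P0 beta and P0 alpha cells. E15.5 beta cells varied most at the low end, with 6.60 in replicate 1 and 3.48, 4.86 and 3.85 in the others. Values in the remaining 5 populations were at or below 4.73, the highest being E15.5 Progenitor replicate 3, and adult alpha cells measured 3.74, 3.81, 3.88, 3.38 and 3.79.

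Ccr2 was above 100 in the means of Neurog3-null cells (9.94, 9.97, 9.67 and 10.20) and adult beta cells (9.56, 8.73, 9.36 and 9.12), and these groups did not overlap. Duct cells, with macrophage markers at least as high, measured 5.17, 6.53, 4.94 and 7.42. P0 beta cells followed with 5.77, 5.31 and 5.44, within the range of duct cells. All arrays of endocrine progenitors (3.05, 2.86 and 3.15) and adult alpha cells (3.46, 3.16, 3.21, 3.39 and 3.16) were low.

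**Figure D2:**
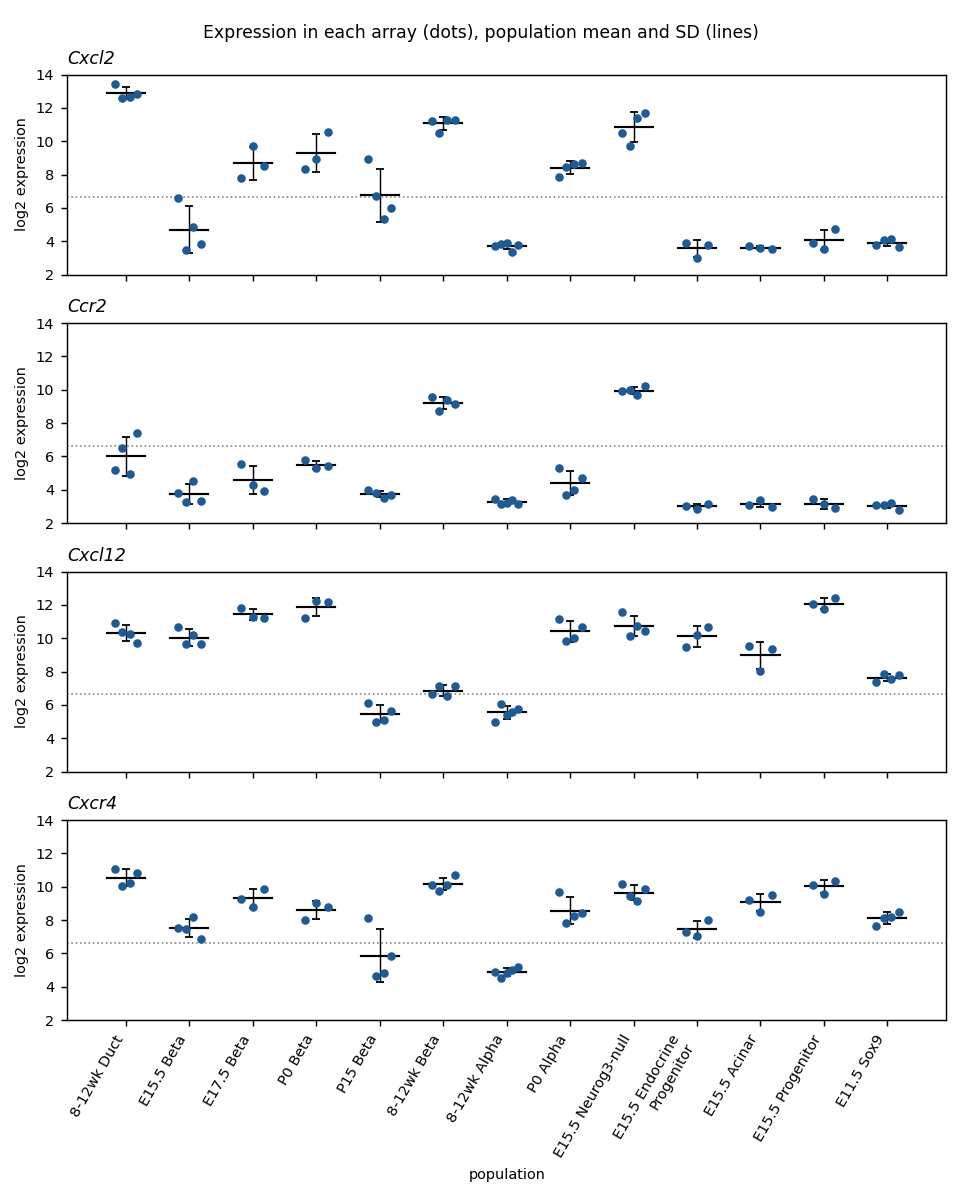
Log2 expression of Cxcl2, Ccr2, Cxcl12 and Cxcr4 in each of the 48 arrays (dots) by population, with the mean (long line) and SD (error bar); the dotted line marks 100 on the linear scale. Cxcl2 is at or above 12.61 in all duct arrays and Ccr2 at or above 8.73 in all adult beta and Neurog3-null arrays, while Cxcl12 is at or below 7.12 in all P15 beta, adult beta and adult alpha arrays.

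Over the 13 population means, the genes most like Cxcl2 among 14405 were Ccl9, Ccl6, Ptprc and C1qc (Pearson r = 0.97 each) and Abca9 (0.96). Those most like Ccr2 were Cd69 and Tifab (0.98) and Wdfy4, Sash3 and Tnfaip8l2 (0.97). Cxcl12 was most like Adamtsl1 (0.94), Calml4 and Myl9 (0.92), Mcam (0.91) and Rab8b (0.90), and Cx3cl1 most like Pdzd3 (0.85), Cc2d2a (0.82), Hsdl2 (0.81), Mpp2 (0.80) and Acbd3 (0.78). Set against the marker lists in the same way, 7 of the 36 tested genes followed the macrophage list most closely, 7 the dendritic list, 7 the NF-kB list and 2 the general leukocyte list. Ccl3 and Ccl9 had r = 0.97 with macrophage markers, Ccr2 0.90 with leukocyte markers and Cxcl1 0.97 with the NF-kB list, but Cxcl12 had 0.65 at most, with mesenchyme markers. Ccl20, Cxcl15 and Ccl28 were closest to the acinar list but followed it weakly (r = 0.49, 0.54 and 0.31), and Ccl28 had 0.31 with the dendritic list too. These r are over 13 means that share arrays and marker genes, and serve as a description.

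Neurog3 is required for endocrine cells to form, and Neurog3-null cells were compared with endocrine progenitors. The null cells came from knock-in embryos and the endocrine progenitors from a Neurog3-eGFP transgenic line. Genotype, reporter line and the mix of sorted cells therefore cannot be told apart in this comparison. All chemokine genes that passed the test were higher in the null cells. Of the 50 genes, 19 were higher and none was lower at a limma adjusted p under 0.05 and at least 2-fold, where 18.7% of all genes tested were higher and 32.9% changed in either direction. The median difference was 1.40 on the log2 scale over the 36 tested genes and 0.10 over all genes, and in all 19 the arrays of both groups did not overlap. Where a group lies below 100 the size of a difference is not exact.

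Among the ligands, Cxcl2 differed most, 10.49, 9.74, 11.38 and 11.72 in Neurog3-null cells against 3.91, 2.99 and 3.79 in endocrine progenitors (difference 7.27, standard error 0.59, adjusted p = 3.5e-13). Ccl6, a CC ligand of myeloid cells, measured 11.74, 11.31, 11.06 and 11.58 in Neurog3-null cells, against 4.74, 4.28 and 4.95 in endocrine progenitors (6.76, standard error 0.47, adjusted p = 2.9e-15). Ccl9, its relative and neighbour on chromosome 11, measured 11.46, 10.65, 10.76 and 11.32 in the null cells, against 4.85, 4.80 and 5.10 in endocrine progenitors (6.13, standard error 0.35, adjusted p = 1.6e-17). Each of these ligands was near the bottom of its range in endocrine progenitors and near the top in the null cells. Ccl3 (difference 5.94), Ccl12 (5.40), Ccl24 (4.14), Ccl4 (2.95), Cxcl10 (2.36), Cxcl16 (2.33), Ccl7 (2.05), Ccl2 (1.84), Ccl5 (1.45) and Ccl25 (1.35) were also higher. Of these, Ccl7 and Ccl5 had means below 100 in both groups. Cxcl1 missed the 2-fold limit, with a mean of 7.86 in the null cells and 6.93 in endocrine progenitors (difference 0.93, adjusted p = 0.0028), and Cxcl3 stayed below 100 in both.

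Receptors were higher as well. Ccr2, at 9.67 or more in the null arrays and at 3.15 or less in those of endocrine progenitors, differed by 6.92 (standard error 0.38, adjusted p = 3.5e-18). Cx3cr1, the fractalkine receptor of macrophages and monocytes, measured 11.45, 10.70, 9.83 and 10.23 in Neurog3-null cells, against 5.84, 5.83 and 5.39 in endocrine progenitors (4.87). Ccr1, a receptor of Ccl3, measured 9.23, 7.50, 7.16 and 7.89 in the null cells and 3.35, 3.58 and 3.60 in endocrine progenitors (4.44). Cxcr3, found on lymphocytes, differed by 2.87 and Cxcr4 by 2.20. The 5 receptors were thus higher in every null array than in any endocrine progenitor array.

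Cxcl15, a ligand known from mouse lung epithelium, had a different pattern. It measured 7.53, 8.55, 9.16 and 8.61 in Neurog3-null cells, against 4.75, 4.63 and 5.37 in endocrine progenitors (difference 3.55, standard error 0.24, adjusted p = 2.6e-15), but the null cells overlapped acinar cells (8.39, 8.69 and 8.77) and it was above 100 in E15.5 Progenitor cells as well (7.48, 7.53 and 6.75). The 8 acinar markers averaged 12.51 in Neurog3-null cells and 9.97 in endocrine progenitors. In the same comparison all 12 macrophage markers and all 10 leukocyte markers were higher in the null cells, with a median difference of 5.04 for the leukocyte markers, as were 4 of 5 neutrophil, 4 of 7 dendritic, 7 of 12 endothelial and 6 of 8 acinar markers, and 10 of 17 genes of the NF-kB list, of which 2 were lower. Their part in the chemokine result was not tested. Without null replicate 1 Ccl25 was no longer called (0.87, adjusted p = 0.015), nor was Ccl5 without null replicate 4 (1.25, adjusted p = 0.052).

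**Figure D3:**
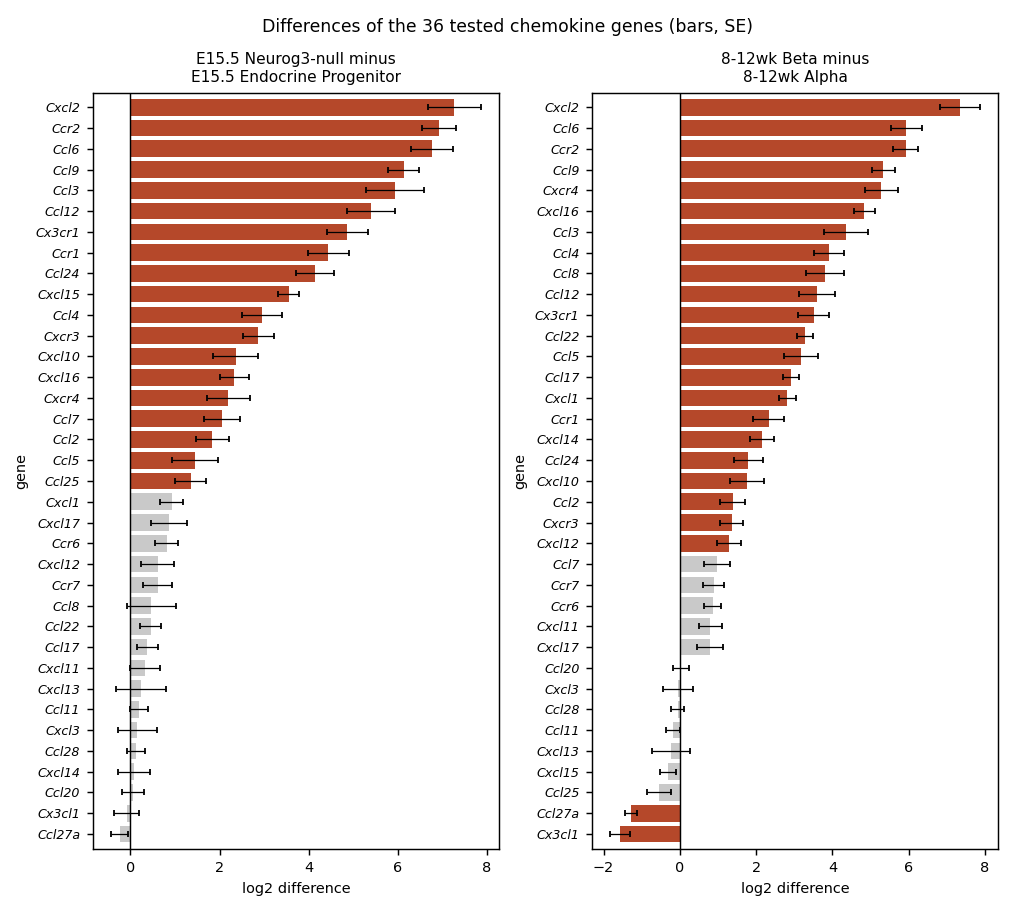
Log2 differences (bars) with standard errors for the 36 tested chemokine genes, Neurog3-null minus endocrine progenitor cells at left and adult beta minus adult alpha cells at right; red bars passed an adjusted p of 0.05 and 2-fold. Cxcl2 heads both panels at 7.27 and 7.35, and the 2 genes lower in adult beta cells are Ccl27a and Cx3cl1.

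Adult beta cells were compared with adult alpha cells to find what separates these hormone-producing cells. In adult beta cells 22 of the 50 genes were higher and 2 were lower, where 12.0% of all genes tested were higher, 5.61% lower and 17.6% changed in either direction. The median difference was 1.77 over the tested chemokine genes and -0.01 over all genes, and the arrays of adult beta and alpha cells did not overlap for any of the 24. Cxcl2, at 10.51 or more in adult beta arrays and at 3.88 or less in adult alpha arrays, differed by 7.35 (standard error 0.52, adjusted p = 1.2e-14). Ccl6 measured 11.38, 10.52, 11.82 and 11.22 in adult beta cells, against 5.78, 5.24, 5.12, 5.53 and 4.83 in adult alpha cells (5.94, adjusted p = 5.1e-15). Ccl9 averaged 10.67 ± 0.55 in adult beta cells (SD, n = 4) and 5.33 ± 0.34 in adult alpha cells (SD, n = 5; difference 5.34, limma adjusted p = 3.6e-17). None of these ligands exceeded 100 in an alpha array.

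Ccr2 differed by 5.92 between adult beta and alpha cells (standard error 0.33, adjusted p = 1.7e-17) and Cxcr4 by 5.28. Cxcr4 measured 10.08, 9.76, 10.10 and 10.68 in adult beta cells, against 4.86, 4.52, 4.82, 4.98 and 5.19 in adult alpha cells, the lowest of the 13 populations. Cx3cr1 (3.51), Ccr1 (2.33) and Cxcr3 (1.36) were higher too. Ccr1 (means 5.92 in adult beta and 3.59 in adult alpha cells) and Cxcr3 (6.18 and 4.82) were below 100 in both groups. Further ligands that were higher were Cxcl16 (4.84), the membrane-bound ligand of Cxcr6, Ccl3 (4.36), Ccl4 (3.92), Ccl8 (3.81), Ccl12 (3.60), Ccl22 (3.27), Ccl5 (3.18), Ccl17 (2.92), Cxcl1 (2.82), Cxcl14 (2.15), Ccl24 (1.79), Cxcl10 (1.76), Ccl2 (1.39) and Cxcl12 (1.29). Ccl17 and Ccl22, ligands of Ccr4 made by dendritic cells and macrophages, stood with dendritic markers, of which 5 of 7 were higher in adult beta cells and none was lower (median difference 4.60). All 12 macrophage markers (median difference 5.39) and all 10 leukocyte markers (6.21) were higher in adult beta cells. Acinar markers were higher in 7 of 8 (median difference 3.71), duct markers in 4 of 6 with 1 lower (3.28), mesenchyme markers in 6 of 12 and endothelial markers in 3 of 12, and what these lists contribute was not tested.

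Lower in adult beta cells were Cx3cl1 and Ccl27a. Cx3cl1, the membrane-bound ligand of Cx3cr1, measured 6.86, 6.42, 6.45 and 6.75 in adult beta cells, against 7.63, 8.17, 8.54, 8.21 and 8.42 in adult alpha cells (difference -1.57, standard error 0.25, adjusted p = 2.2e-06). Ccl27a measured 9.03, 9.05, 8.93 and 9.07 in adult beta cells, against 10.16, 10.66, 10.31, 10.19 and 10.25 in adult alpha cells (-1.29, standard error 0.16, adjusted p = 2.6e-08). Both were thus above 100 in all adult alpha arrays. The Ccl27a probe lies in a locus shared with the neighbouring Il11ra1 and near-identical copies, so its signal is not certain to be that of Ccl27a alone. Cx3cl1 has 3 further probes, of which the brightest followed it less closely (r = 0.55).

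Beta cells were measured at 5 stages, and their chemokine genes did not follow a single course. Between E15.5 and E17.5, 14 of the 50 genes were higher at the later stage (9.21% of all genes tested were) and 1 was lower (1.74% of all genes were), with 11.0% of all genes changed. Between E17.5 and P0, 4 were higher and none was lower (4.36% of all genes were higher, 1.65% lower and 6.01% changed). From P0 to P15, 2 were higher and 16 lower (6.65% and 18.3% of all genes, 25.0% together), and from P15 to adults 22 were higher and none lower (8.22% of all genes were higher, 9.71% changed). Neighbouring comparisons share the arrays of a stage, so these counts are not independent of each other. Median differences of the tested chemokine genes were 0.56, 0.30, -0.81 and 1.76 over the 4 steps, and those of all genes lay between -0.05 and 0.03.

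At E17.5 against E15.5, Cxcl2 had 7.77, 9.69 and 8.54, against 6.60, 3.48, 4.86 and 3.85 (difference 3.97, standard error 0.59, adjusted p = 3.3e-06). Ccl3, an inflammatory ligand of Ccr1, had 8.37, 8.80 and 9.07 at E17.5, against 7.59, 4.32, 4.42 and 3.78 at E15.5 (3.72, adjusted p = 4.1e-05). Cxcl1 had 9.27, 9.94 and 9.21 at E17.5, against 6.89, 6.79, 6.86 and 6.72 at E15.5 (2.66, adjusted p = 9e-10). For Cxcl2 and Ccl3 the single high array at E15.5 was replicate 1, the array in which Adgre1, a macrophage surface antigen, was also highest (8.07, against 4.92, 5.96 and 5.32 in the others). Ccl12 (2.78), in which that array (6.48) overlapped E17.5 (6.42), was higher too, and so were Ccl2 (2.44), Ccl9 (2.37), Ccl4 (2.22), Ccl6 (2.15), Cxcl10 (2.05), Ccl11 (1.95), Ccl7 (1.87), Cxcl16 (1.85), Cxcr4 (1.78) and Cxcl12 (1.41). Ccl11 and Ccl7 had means below 100 at both stages. Cx3cl1 was lower (-1.15). In this step 7 of 12 macrophage, 4 of 10 leukocyte, 12 of 12 endothelial, 10 of 12 mesenchyme and 10 of 12 immediate early genes were higher and none was lower. Without E17.5 replicate 1 Cx3cl1 (-0.86, adjusted p = 0.06), and without E17.5 replicate 3 Cxcr4 (1.49, adjusted p = 0.052), were no longer called.

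P0 beta cells were higher than E17.5 beta cells in Ccl6 (difference 2.37), Ccl12 (1.79), Ccl9 (1.52) and Ccl11 (1.48). Ccl11, the eosinophil-attracting eotaxin, measured 7.57, 7.84 and 7.51 at P0 and 6.37, 6.21 and 5.89 at E17.5 (adjusted p = 1.3e-05). It exceeded 100 in the means of P0 beta and P0 alpha cells and in no other population (P0 alpha arrays at 7.42, 6.44, 7.16 and 6.54), and over the 13 means it followed mesenchyme markers most closely (r = 0.86). The Ccl12 call was lost without E17.5 replicate 1 (1.11, adjusted p = 0.24), P0 replicate 2 (1.82, adjusted p = 0.086) or P0 replicate 3 (1.53, adjusted p = 0.13). Without P0 replicate 1 the count was 7 genes rather than 4. Between these stages macrophage and leukocyte markers were higher in 2 each, of 12 and 10, and acinar markers in 5 of 8, with none lower.

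In P15 beta cells Cxcl12 showed the greatest difference from P0. It measured 6.12, 5.00, 5.12 and 5.62 at P15, against 11.24, 12.22 and 12.19 at P0 (difference -6.42, standard error 0.37, adjusted p = 1.9e-17). Ccl12 measured 6.36, 3.59, 3.65 and 4.05 at P15, against 9.13, 9.49 and 10.07 at P0 (-5.15), and Ccl6 8.09, 5.93, 4.82 and 5.70 at P15, against 10.52, 10.77 and 10.39 at P0 (-4.43). Ccl9 measured 6.28, 5.00, 5.55 and 5.44 at P15, against 9.74, 9.58 and 9.70 at P0 (-4.11). All 4 were highest in P15 replicate 1, the array with raised Ptprc, and lay below all P0 arrays there too. Ccl3 (-3.73), Ccl11 (-3.59), Ccl7 (-3.16), Ccl2 (-2.94), Cxcl2 (-2.53), Ccl24 (-1.78), Cxcl1 (-1.77) and Cxcl13 (-1.50) were also lower.

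Of the receptors, Cxcr4 measured 8.12, 4.67, 4.83 and 5.84 in P15 beta cells, against 8.00, 9.05 and 8.80 at P0 (difference -2.75, adjusted p = 1.2e-05), so that P15 replicate 1 alone overlapped P0. Ccr1 (-2.25), Ccr2 (-1.76) and Cx3cr1 (-1.40) were lower too. Cxcl11 (1.49) and Ccl25 (1.08), a ligand of gut-homing lymphocytes, were higher at P15. Ccr1, Ccr2 and Cxcl11 had means below 100 at both ages. In this step 11 of 12 macrophage, 10 of 10 leukocyte, 12 of 12 endothelial and 12 of 12 mesenchyme markers were lower and none was higher, neutrophil markers were lower in 3 of 5, and the part of these lists was not tested. Calls were lost for Cx3cr1 without P0 replicate 3 (-1.22, adjusted p = 0.057) or P15 replicate 3 (-1.11, adjusted p = 0.058), for Cxcl13 without P0 replicate 3 (-1.17, adjusted p = 0.13) and for Ccl25 without P15 replicate 1 (0.81, adjusted p = 0.052).

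**Figure D4:**
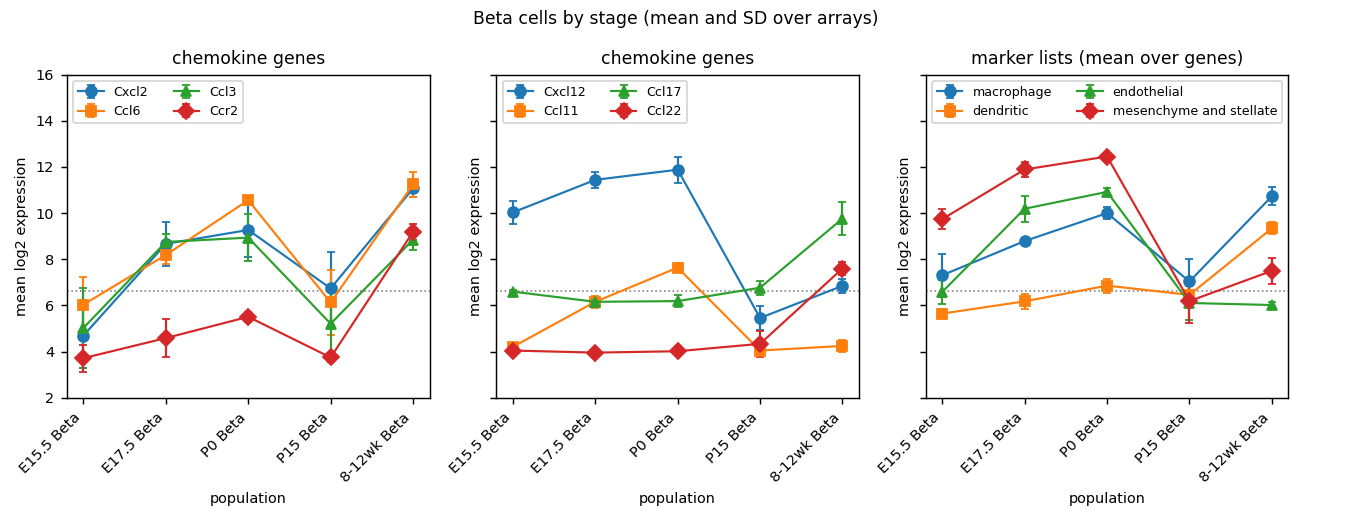
Mean log2 expression and SD of 8 chemokine genes (left and middle) and of 4 marker lists averaged over their genes (right) in beta cells from E15.5 to 8-12wk; the dotted line marks 100 on the linear scale. Cxcl2, Ccl6 and Ccl3 are lower at P15 than at P0 and 8-12wk, as is the macrophage list, while Cxcl12 and Ccl11 peak at P0 with the mesenchyme and endothelial lists.

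Adult beta cells were higher than P15 beta cells in Ccr2 (9.56, 8.73, 9.36 and 9.12 in adults, against 3.98, 3.79, 3.51 and 3.71 at P15), a difference of 5.44 (standard error 0.35, adjusted p = 5.5e-15). Ccl6 differed by 5.11, Ccl9 by 5.10, Cxcl2 by 4.33, Cxcr4 by 4.29, Ccl8 by 3.92, Cxcl16 by 3.75, Ccl3 by 3.63 and Ccl22 by 3.27. The other 13 genes that were higher, among them Ccl12, Ccl17, Ccl5, Ccl4 and Cx3cr1, differed by 1.39 to 3.02. All 22 had adult arrays above all P15 arrays. Leaving out any single array gave 22 to 24 genes. Macrophage markers were higher in 11 of 12, leukocyte markers in 10 of 10, dendritic markers in 5 of 7, mesenchyme markers in 7 of 12 and genes of the NF-kB list in 8 of 17, with none lower in any of these lists, and endothelial and neutrophil markers were called in neither direction.

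Adults set against P0, the comparison of mature with newborn beta cells, divided the genes. Of the 50, 12 were higher and 6 lower in adult beta cells (8.74% and 16.8% of all genes, 25.5% together). Higher were Ccr2 (difference 3.68), Ccl22 (3.58), Ccl17 (3.57), Ccl8 (3.16), Cxcl16 (3.03), Cxcl14 (2.16), Ccl4 (2.13), Ccl5 (2.12), Cxcl2 (1.80), Cxcr4 (1.54), Cx3cr1 (1.43) and Cxcl10 (1.22). Ccl22 measured 7.58, 7.25, 7.89 and 7.70 in adults, against 3.95, 4.02 and 4.10 at P0, and Ccl17 measured 10.23, 8.80, 10.37 and 9.63 in adults, against 6.34, 6.35 and 5.87 at P0. Both genes flank Cx3cl1 on chromosome 8, which was not among the calls (6.62 in adults, 7.11 at P0). Lower were Cxcl12 (-5.03), with 6.66, 7.12, 6.51 and 7.12 in adults against 11.24 or more at P0, Ccl11 (-3.39), Ccl7 (-2.30), Ccl12 (-2.13), Cxcl13 (-2.01) and Ccl2 (-1.42).

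The lower genes thus included Ccl2, Ccl7, Ccl11 and Ccl12, which lie in a row on chromosome 11 and act on monocytes or eosinophils, whereas Ccl8, the next in that row, was higher. Macrophage markers were higher in 6 of 12 and lower in 2, neutrophil markers lower in 3 of 5 and higher in none, dendritic markers higher in 4 of 7 and lower in 1, leukocyte markers higher in 5 of 10, and all 12 endothelial and all 12 mesenchyme markers were lower in adults. Cxcl2 was no longer called without P0 replicate 1 (1.33, adjusted p = 0.097) or 2 (1.63, adjusted p = 0.053), nor Cxcr4 without P0 replicate 1 (1.23, adjusted p = 0.063). The Cxcl10 call was lost when any of 5 single arrays was left out, at 0.91 to 1.28.

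Alpha cells were compared between the same ages. In adult alpha cells 1 of the 50 genes was higher and 9 were lower than in P0 alpha cells (6.87% and 15.7% of all genes, 22.6% together). Cxcl12 measured 5.00, 6.05, 5.41, 5.58 and 5.75 in adult alpha cells, against 11.14, 9.82, 9.99 and 10.66 in P0 alpha cells (difference -4.84, standard error 0.32, adjusted p = 1.4e-15). Cxcl2, at 3.88 or less in adult arrays and at 7.84 or more in P0 arrays, differed by -4.69, Ccl6 by -4.26, Cxcr4 by -3.68, Ccl9 by -3.20, Ccl11 by -2.45, Ccl12 by -2.35, Cxcl1 by -1.90 and Ccr2 by -1.15. Means of Ccl12 (3.83 in adult and 6.17 in P0 alpha cells) and Ccr2 (3.27 and 4.42) were below 100 at both ages. Ccl27a was higher (1.42), with 9.22, 9.05, 8.63 and 8.69 at P0. Macrophage markers were lower in 7 of 12, leukocyte markers in 7 of 10, duct markers in 4 of 6, and endothelial and mesenchyme markers in 12 of 12 each. The Ccr2 call was lost without P0 alpha replicate 1 (-0.86, adjusted p = 0.04), and with the mean of all its probes (-0.16, adjusted p = 0.42).

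Whether the change from P0 to adults differed between alpha and beta cells was tested directly. For 17 of the 50 genes it did (23.4% of all genes tested). Of these, 14 had a lower value for alpha cells (11.8% of all genes did) and 3 a higher one (11.6%). Cxcl2 changed by -4.69 in alpha cells and by 1.80 in beta cells, a difference of -6.49 (standard error 0.79, adjusted p = 4.6e-08). Cxcr4 changed by -3.68 in alpha and 1.54 in beta cells (difference -5.22), Ccl6 by -4.26 in alpha and 0.68 in beta cells (-4.94), Ccr2 by -1.15 in alpha and 3.68 in beta cells (-4.83) and Ccl9 by -3.20 in alpha and 1.00 in beta cells (-4.20). Cxcl12 changed by -4.84 in alpha and by -5.03 in beta cells, a difference of 0.19 (adjusted p = 0.8). Ccl11 changed by -2.45 in alpha and by -3.39 in beta cells, and this difference of 0.94 (adjusted p = 0.0062) was under 2-fold. Macrophage markers showed the same kind of difference in 10 of 12 genes and leukocyte markers in 9 of 10, all lower for alpha cells, as did dendritic markers in 4 of 7 and duct markers in 4 of 6 with 1 higher, while neutrophil markers in 3 of 5 and endothelial markers in 6 of 12 were higher for alpha cells, and their part was not tested. The differences of Ccl5, Cx3cr1, Cxcl13 and Cxcl14 were no longer called when any of several single arrays was left out.

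P0 beta cells had 14 of the 50 genes higher than P0 alpha cells and none lower (13.7% of all genes were higher, 6.39% lower and 20.1% changed). Ccl3 measured 8.11, 8.65 and 10.06 in P0 beta cells, against 5.12, 4.03, 5.73 and 5.18 in P0 alpha cells (difference 3.93, adjusted p = 5.4e-06). Ccl12 measured 9.13, 9.49 and 10.07 in P0 beta cells, against 5.41, 6.31, 6.52 and 6.45 in P0 alpha cells (3.39). Ccl7, an attractant of monocytes, measured 6.76, 7.87 and 8.25 in P0 beta cells, against 5.15, 4.69, 5.03 and 4.83 in P0 alpha cells (2.70), and Ccl2 measured 8.70, 9.21 and 9.92 in P0 beta cells, against 7.02, 6.87, 7.07 and 6.99 in P0 alpha cells (2.29). All 4 are ligands for myeloid cells, and no alpha array reached a beta array. Ccr1 (2.17), Cx3cr1 (1.89), Ccl24 (1.84), Cxcl13 (1.79), Cxcl12 (1.48), Cxcl16 (1.44), Ccl5 (1.36), Ccl9 (1.15), Cxcr3 (1.12) and Ccr2 (1.09) were also higher. Of these, Ccr1, Ccl5, Cxcr3 and Ccr2 (5.51 in P0 beta and 4.42 in P0 alpha cells) had means below 100 in both groups. Macrophage markers were higher in 11 of 12, leukocyte markers in 9 of 10, neutrophil markers in 3 of 5, and endothelial and mesenchyme markers in 8 of 12 each.

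The smaller of these differences rested on single arrays. Without P0 beta replicate 2, Cxcr3 (0.75, adjusted p = 0.1) and Ccl5 (1.08, adjusted p = 0.14) were no longer called in P0 beta against P0 alpha cells, nor was Cxcl13 without P0 beta replicate 3 (1.47, adjusted p = 0.064), Ccl5 without P0 alpha replicate 2 (1.30, adjusted p = 0.056) or Ccl9 without P0 alpha replicate 3 (0.98, adjusted p = 0.034). The Ccr2 call was lost without P0 beta replicate 1 (0.96, adjusted p = 0.076), P0 alpha replicate 2 (0.84, adjusted p = 0.087) or P0 alpha replicate 3 (0.95, adjusted p = 0.06).

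Duct cells were set against adult beta cells, the other adult population with all macrophage markers above 100 (means 11.62 in duct and 10.73 in adult beta cells). Of the 50 genes 19 were higher and 4 lower in duct cells (15.7% and 17.1% of all genes, 32.7% together), with a median difference of 1.18 over the tested chemokine genes and -0.05 over all genes. For 15 of the 23 the arrays did not overlap. Ccl7 measured 13.12, 10.51, 10.80 and 11.37 in duct cells, against 5.23, 5.22, 6.31 and 4.55 in adult beta cells (difference 6.12, standard error 0.37, adjusted p = 1.6e-17). Cxcl3 measured 11.09, 7.97, 6.79 and 7.20 in duct cells, against 3.18, 3.25, 3.59 and 3.83 in adult beta cells (4.80, adjusted p = 4.7e-13), and in no other population did any of its arrays exceed 4.10. Ccl2 measured 12.96, 10.21, 10.89 and 11.45 in duct cells, against 7.96, 7.76, 8.04 and 7.64 in adult beta cells (3.52). Duct replicate 1 was the highest of the 4 for each of these ligands, and the other 3 also lay above all beta arrays.

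Cxcl12 measured 10.90, 10.37, 10.28 and 9.70 in duct cells, against 6.66, 7.12, 6.51 and 7.12 in adult beta cells (difference 3.46, standard error 0.34, adjusted p = 2.1e-11). Ccl12 (3.34), Cxcl1 (2.97), Cxcl10 (2.88), Ccl24 (2.70), Ccl3 (2.58), Ccl4 (2.27), Cxcl13 (2.05), Cxcl2 (1.82), Cxcl17 (1.82), Cx3cl1 (1.45), Ccl5 (1.29), Cxcl16 (1.28) and Ccl9 (1.14) were also higher in duct cells. Cxcl17, a mucosal ligand, exceeded 100 in the mean of duct cells alone, with 9.31, 8.21, 5.59 and 7.85 against 5.22, 5.62, 5.76 and 7.07 in adult beta cells. Of the receptors Ccr7, which guides dendritic cells to lymph nodes, measured 8.68, 8.39, 8.06 and 6.72 in duct cells, against 5.16, 5.47, 5.12 and 4.75 in adult beta cells (2.84), and Ccr1 was higher by 1.22. Lower in duct cells were Ccr2 (-3.18), Ccl17 (-2.45), Cx3cr1 (-1.39) and Cxcl14 (-1.21). Ccr2 was at most 7.42 in a duct array and at least 8.73 in an adult beta array.

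The genes that were higher included Cxcl1, Cxcl2 and Cxcl3, whose promoters are printed above. Of the NF-kB list 10 of 17 were higher and 1 lower in duct cells, led by Rel (4.51), Relb (3.41), Icam1 (3.40) and Il6 (2.98), and 8 of 12 immediate early genes, which respond to stress and cell handling, were higher and none lower. That list averaged 12.99 in duct and 11.38 in adult beta cells. Macrophage markers were higher in 4 of 12 and lower in 1, and leukocyte markers were lower in 1 of 10 and higher in none. Neutrophil markers were higher in 4 of 5 (median difference 2.66), endothelial markers in 6 of 12 and duct markers in 4 of 6, with none lower, and mesenchyme markers were higher in 2 of 12 and lower in 4. How these lists relate to the chemokine genes was not tested. Without duct replicate 1 the calls of Ccl5 (0.31, adjusted p = 0.39), Ccr1 (0.52, adjusted p = 0.22) and Ccl9 (0.76, adjusted p = 0.041) were lost, as were Ccl9 (0.92) and Ccr1 (0.95) without adult beta replicate 2, Ccl5 (0.93) without adult beta replicate 3 and Cxcl14 without adult beta replicate 1 (-0.76) or duct replicate 3 (-0.92), and Cxcl13 was 1.24 without duct replicate 2.

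**Figure D5:**
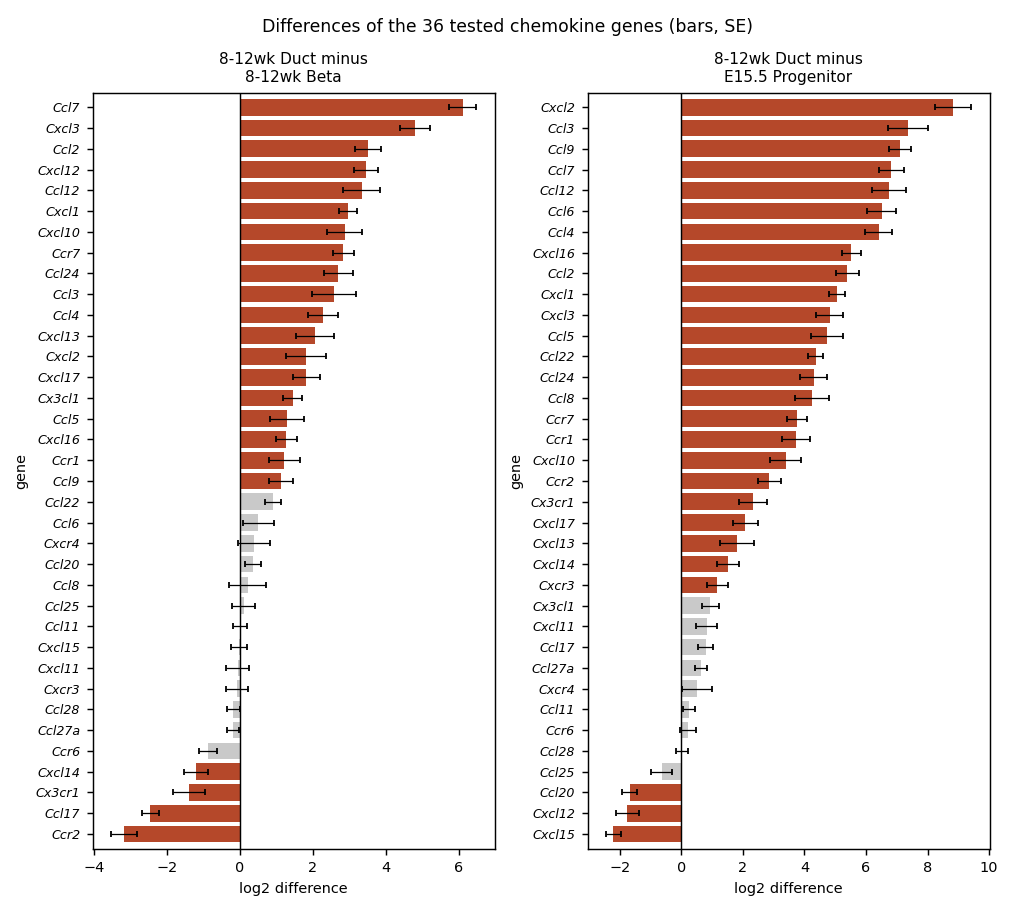
Log2 differences (bars) with standard errors for the 36 tested chemokine genes, duct minus adult beta cells at left and duct minus E15.5 Progenitor cells at right; red bars passed an adjusted p of 0.05 and 2-fold. Ccl7 leads the left panel at 6.12 and Cxcl2 the right one at 8.83, while Cxcl12 is higher in duct cells than in adult beta cells (3.46) and lower than in E15.5 Progenitor cells (-1.75).

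Duct cells were also set against the E15.5 Progenitor cells. In duct cells 24 of the 50 genes were higher and 3 lower (15.1% and 19.6% of all genes, 34.7% together), and the median difference was 3.12 over the tested chemokine genes and -0.16 over all genes. Cxcl2 differed by 8.83 (standard error 0.59, adjusted p = 1.1e-15). Ccl3 measured 12.69, 10.21, 11.33 and 11.45 in duct cells, against 4.31, 3.78 and 4.14 in Progenitor cells (7.35), and Ccl9 measured 12.97, 11.55, 11.02 and 11.73 in duct cells, against 4.76, 4.91 and 4.49 in Progenitor cells (7.10). Ccl7 differed by 6.82. The other 20 genes that were higher differed by 1.17 (Cxcr3) to 6.75 (Ccl12), among them Cxcl16 (5.53), Cxcl1 (5.05), Cxcl3 (4.82), Ccr7 (3.75) and Ccr1 (3.73). Means of Cxcr3 were below 100 in both groups. All 12 macrophage and all 10 leukocyte markers were higher in duct cells, as were all 5 neutrophil, 5 of 7 dendritic and 9 of 12 endothelial markers and 14 of 17 genes of the NF-kB list. The Cxcl13 call was lost without duct replicate 2 (1.01, adjusted p = 0.075) and that of Cxcr3 without duct replicate 4 (0.88, adjusted p = 0.026).

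The 3 genes that were lower in duct than in E15.5 Progenitor cells were Cxcl15 (-2.21), Cxcl12 (-1.75) and Ccl20 (-1.67). Of these, Ccl20 had its highest means in Progenitor and acinar cells, where general leukocyte markers averaged 5.48 and 5.89, and Cxcl15 had its highest in acinar (8.62) and Neurog3-null cells (8.46), where those markers averaged 5.89 and 11.18. Ccl20, an epithelial ligand of Ccr6, measured 6.37, 6.50 and 7.78 in E15.5 Progenitor cells and 5.95, 5.88 and 6.06 in acinar cells, and no array of the other 11 populations exceeded 5.62. Only E15.5 Progenitor replicate 3 (7.78) was thus above 100, and Ccl20 entered the tests through that array alone. Against E11.5 Sox9 cells, E15.5 Progenitor cells had 6 of the 50 genes higher and 1 lower (6.25% and 7.30% of all genes, 13.6% together). Cxcl12 measured 12.05, 11.75 and 12.40 in E15.5 Progenitor cells, against 7.39, 7.84, 7.53 and 7.77 in E11.5 Sox9 cells (difference 4.43, a 21.6-fold difference, adjusted p = 1.5e-12). Ccl20, at 4.45, 4.65, 4.82 and 4.40 in E11.5 Sox9 cells, differed by 2.30.

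Cxcl15 measured 7.48, 7.53 and 6.75 in E15.5 Progenitor cells, against 5.43, 5.08, 5.16 and 5.52 in E11.5 Sox9 cells (difference 1.96), and Cxcr4 measured 10.12, 9.58 and 10.37, against 7.64, 8.10, 8.16 and 8.51 (1.92). The ligand Cxcl12 and its receptor Cxcr4 were thus both higher at E15.5, while Ackr3, an atypical receptor that takes up Cxcl12, was lower (4.25, 4.91 and 4.75 in E15.5 Progenitor cells, against 7.08, 7.15, 7.38 and 7.48 in E11.5 Sox9 cells, difference -2.64). Cxcl1 (1.28) and Cxcl16 (1.24) were higher and Ccl27a (-1.28) was lower. E15.5 Progenitor replicate 3 stood above its group in Cxcl10 (9.68, against 6.93 and 7.11), Ccl20, Cxcl1 and Cxcl16. Without it the last 2 were no longer called (0.92 with adjusted p = 0.013 for Cxcl1, 0.92 with adjusted p = 0.06 for Cxcl16).

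Acinar cells differed from E15.5 Progenitor cells in 4 of the 50 genes, 1 higher and 3 lower (4.63% and 7.06% of all genes, 11.7% together). Cxcl15 was higher (difference 1.36, adjusted p = 0.00013). Cxcl12 was lower, with 9.55, 8.06 and 9.33 in acinar cells against 12.05, 11.75 and 12.40 in Progenitor cells (-3.09), as were Cxcl10 (-2.60, or -1.72 without Progenitor replicate 3) and Cx3cl1 (-1.14). The Cx3cl1 call was lost without Progenitor replicate 3 (-0.86, adjusted p = 0.077). Endothelial markers averaged 9.16 in acinar and 5.36 in Progenitor cells and were higher in 12 of 12, and macrophage and leukocyte markers were higher in 1 each.

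Endocrine progenitors had 6 of the 50 genes lower than E15.5 Progenitor cells and none higher (11.8% of all genes were lower, 22.5% changed). Cxcr4 measured 7.31, 7.02 and 8.00 in endocrine progenitors, against 10.12, 9.58 and 10.37 in Progenitor cells (difference -2.58, adjusted p = 0.00011). Cxcl10 (-2.47, or -1.58 without Progenitor replicate 3), Cxcl15 (-2.34), Ccl20 (-2.32), Cxcl12 (-1.95) and Cxcl16 (-1.49) were lower too. Cxcl12 remained well above 100 in endocrine progenitors, at 9.46, 10.20 and 10.68. Cxcl15 and Ccl20 were thus below 100 in all endocrine progenitor arrays. Ccl20 was also below 100 in Progenitor replicates 1 and 2 (6.37 and 6.50), and only replicate 3 (7.78) exceeded it. The size of its difference is therefore not exact. In E15.5 beta cells 3 of the 50 genes were higher than in endocrine progenitors and none was lower (6.69% of all genes were higher, 4.57% lower and 11.3% changed). Cx3cl1 measured 8.41, 8.63, 8.47 and 8.38 in E15.5 beta cells, against 7.01, 6.87 and 6.97 in endocrine progenitors (1.52, adjusted p = 8.4e-05), and remained called whichever single array was left out. This rests on its brightest probe. The mean of its probes did not exceed 100 in any array and was not tested. Its next brightest probe had its highest mean in adult alpha cells (7.61) rather than in E15.5 beta cells. Cxcl13, a B cell attractant, was higher by 1.75 and Ccl6, with means below 100 in both groups, by 1.38. The Cxcl13 call was lost without endocrine progenitor replicate 1 (1.52) or 2 (1.70) or E15.5 beta replicate 1 (1.56), and the Ccl6 call when any of 4 arrays was left out, at 0.90 to 1.42. Macrophage markers were higher in 8 of 12, leukocyte markers in 4 of 10, endothelial markers in 9 of 12 and mesenchyme markers in 7 of 12 in that comparison.

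Some ligands were above 100 in all or most populations. Ccl25 had its lowest mean in P0 beta cells (7.31) and its highest in Neurog3-null cells (9.10), where replicate 1 measured 10.55 and the others 8.48, 8.63 and 8.75. Ccl27a ran from 8.00 in acinar cells to 10.31 in adult alpha cells. Cx3cl1 was above 100 in 11 populations, with the highest means in E15.5 beta (8.47), adult alpha (8.19) and duct cells (8.29, 8.43, 8.04 and 7.51 by array), and its lowest in acinar cells (5.99). Cxcl12 was also above 100 in 11 populations, in all but P15 beta and adult alpha cells, and in adult beta cells its mean of 6.85 was close to the limit.

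Atypical receptors bind chemokines without signalling through G proteins, and 5 were measured as a list. Ackr3, which takes up Cxcl12, measured 5.95, 5.47, 6.42 and 6.02 in E15.5, 8.56, 7.74 and 7.71 in E17.5 and 9.14, 10.31 and 10.29 in P0 beta cells, then 5.32, 3.16, 3.24 and 4.10 at P15 and 4.00, 3.99, 3.87 and 4.92 in adults. In duct cells it measured 10.19, 9.90, 9.34 and 8.60, higher than in adult beta cells by 5.31. Ccrl2, a non-signalling receptor of leukocytes and epithelia, measured 9.22, 9.12, 10.39 and 11.09 in Neurog3-null cells, against 5.86, 5.67 and 6.72 in endocrine progenitors (difference 3.87). It was higher by 2.58 in adult beta than in adult alpha cells and by 1.75 in duct than in adult beta cells. Ackr3 thus peaked at P0 in beta cells, as Cxcl12 did. Ccrl2 was higher where Cxcl2 was in these 3 comparisons, but not in all others. In alpha cells, where Cxcl2 was lower in adults, Ccrl2 measured 7.43, 8.06, 7.98, 7.39 and 7.70 in adults and 7.12, 7.83, 7.04 and 6.99 at P0. Its arrays in P15 (8.48, 8.17, 8.34 and 8.03) and P0 beta cells (8.43, 8.55 and 9.19) overlapped, while Cxcl2 was lower at P15.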

How the data were processed

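RNA of 48 samples of 13 sorted pancreas populations had been amplified (NuGEN Ovation) and hybridised by the authors to Affymetrix mouse whole-genome arrays. The deposited values are log2 intensities that the authors normalised with RMA, per the labels in R 2.11.1, and they were used as deposited. No scanner files were used here, so background and array quality were not reassessed, and the number of arrays limits the precision.

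Probes were named from the platform annotation. Of 45101 probes, 34958 had 1 gene symbol, 932 several and 9211 none, and only those with 1 symbol were used for genes (18194 genes). Symbols were looked up in RefSeq GRCm38.p6, where 34754 of the probes' symbols were found and 204 were kept as the platform gives them. A gene's values are those of its brightest probe on average over the 48 arrays. Of the 50 genes 18 had several probes.

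A mean for each of 13 populations was fitted with limma 3.58.1 (R 4.3.3) to the 32078 probes above 100 on the linear scale in at least 1 array, with Benjamini-Hochberg adjustment over all of them. Residual degrees of freedom were 35. A gene was called at an adjusted p under 0.05 and a log2 difference of at least 1. The study's own tests were Student's t-tests on pairs of populations, which were run as an alternative. The fit was tested on simulated data. In 16 comparisons, 50 genes were described, and array values are given for Cxcl2, Ccr2 and up to 4 called genes with the greatest differences per comparison, while values of other genes were added after they had been seen. The genes and the marker and pathway lists were chosen with earlier results of these data known. Listed genes with no probe of their own symbol were not used here. A gene most alike another was ranked by Pearson r over 13 population means.

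Replicate numbers of the labels were checked for pairing by the correlation of deviations from the group means. Same-numbered E15.5 Progenitor and E11.5 Sox9 arrays deviated together in all 3 pairs (r from 0.11 to 0.15), so these were treated as paired in an alternative, but the labels do not say what the number marks. Other alternatives were 2 other filters on low values, quantile normalization, the mean of all probes of a gene and leaving out each array in turn. For the difference of maturation, limma was also fitted to its 4 populations alone.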

Additional observations from a re-analysis of the deposited data

Results flagged for a closer look

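In 7 of 138 combinations of a chemokine gene and a population of 4 or 5 arrays, counted where at least 1 array exceeded 100, 1 array lay apart from the rest, where chance gives about 5%. Without that limit it was 29 of 400, among them Ccl12 in P15 beta replicate 1 (6.36, against 3.59, 3.65 and 4.05). Cxcl2 measured 10.51 in adult beta replicate 2 and 11.20 to 11.29 in the other 3 arrays. Ccl12 measured 7.08 in the same array and 7.52 to 7.60 in the others. Ccl25 measured 10.55 in Neurog3-null replicate 1 and 8.48 to 8.75 in the others, and its difference from endocrine progenitors was no longer called without that array (0.87, adjusted p = 0.015). In E15.5 beta replicate 1, Ccl3 measured 7.59 (3.78 to 4.42 in the others) and Ccl24 6.94 (5.74 to 5.92 in the others). Cxcl11 measured 7.29 in duct replicate 1 and 4.82 to 5.23 in the others, and Cxcl13 6.66 in P15 beta replicate 1 and 6.09 to 6.19 in the others.

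The change between P0 and adults differed between alpha and beta cells in 17 of the 50 genes, by the test of that difference. Of all genes tested 23.4% did, 11.8% with a lower and 11.6% with a higher value for alpha cells. The change was more negative, or less positive, in alpha than in beta cells for Cxcl2 (difference of the changes -6.49), Cxcr4 (-5.22), Ccl6 (-4.94), Ccr2 (-4.83), Ccl9 (-4.20), Cxcl16 (-3.40), Ccl22 (-3.34), Ccl17 (-3.22), Ccl8 (-3.07), Ccl4 (-2.89), Cxcl1 (-2.31), Ccl5 (-1.82), Cx3cr1 (-1.62) and Cxcl14 (-1.36). The difference had the opposite sign for Cxcl13 (2.03), Ccl7 (1.74) and Ccl27a (1.39). Cxcl13 changed by 0.02 in alpha cells and by -2.01 in beta cells, Ccl7 by -0.56 in alpha cells and by -2.30 in beta cells, and Ccl27a by 1.42 in alpha cells and by 0.03 in beta cells. Macrophage markers differed in the same way in 10 of 12 genes, and their part was not tested.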

How the results depend on the processing

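Over the 16 comparisons, 231 calls of chemokine genes were made and none changed sign under any alternative run. Quantile normalization lost no call, and using no filter lost 1. The filter of above 100 in at least 3 arrays kept all 227 calls that it tested. It did not test the calls of Ccl20 and Cxcl11, which exceeded 100 in fewer arrays. The mean of all probes of a gene kept 211 of the calls it tested and lost 14. Among the lost were those of Ccr2 in adult against P0 alpha cells, P15 against P0 beta cells and P0 beta against P0 alpha cells. That mean did not test the calls of Cx3cl1 and Cxcl11, whose averaged probes did not exceed 100 in any array. The methods' t-test with Benjamini-Hochberg adjustment lost 49 and kept 165, and was not run for the 17 calls on the difference of maturation. It called 7 genes for E17.5 against E15.5 beta cells (15 with limma), 0 for P0 against E17.5 beta cells (4, and 5 by the same t-test at an unadjusted p under 0.05 and 2-fold) and 1 for acinar against E15.5 Progenitor cells (4), and it uses only the arrays of the pair. The mean of all probes gave 1 gene for E15.5 beta cells against endocrine progenitors (3). Of the 17 calls on the difference of maturation, a limma fit to its 4 populations alone kept 16 and lost 1.

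Leaving out single arrays gave 5 to 8 genes for E15.5 Progenitor against E11.5 Sox9 cells, 27 to 28 for duct against E15.5 Progenitor cells, 3 to 5 for acinar and 6 to 7 for endocrine progenitor against E15.5 Progenitor cells, 1 to 3 for E15.5 beta cells and 18 to 21 for Neurog3-null cells against endocrine progenitors, 14 to 16 for E17.5 against E15.5 beta cells, 3 to 7 for P0 against E17.5 beta cells, 17 to 21 for adult against P0 beta cells, 16 to 19 for P15 against P0 beta cells and 22 to 24 for adult against P15 beta cells. It gave 24 to 26 for adult beta against adult alpha cells, 12 to 14 for P0 beta against P0 alpha cells, 9 to 10 for adult against P0 alpha cells, 20 to 25 for duct against adult beta cells and 13 to 19 for the difference of alpha and beta maturation.

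With the replicate number as a block all 231 calls were kept. The block gave 7 genes for E15.5 Progenitor against E11.5 Sox9 cells, the only pair of groups whose same-numbered arrays all deviated together, and again 7 in a fit to these groups alone, an alternative chosen after seeing the data. In the other comparisons the same-numbered arrays shared only a number (r from -0.42 to 0.30), and the block gave 19 genes for adult against P0 beta cells, 5 for P0 against E17.5 beta cells, 25 for adult beta against adult alpha cells, 15 for P0 beta against P0 alpha cells and 18 for the difference of maturation, with the count of the fit without it elsewhere. Groups of 3 to 5 arrays and values below 100 limit what can be called.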

Other observations

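The lists of genes around the chemokines showed further groups. Of the 17 measured genes of the NF-kB list, 14 were higher and none was lower in duct cells than in E15.5 Progenitor cells, and 9 were higher in E17.5 than in E15.5 beta cells with none lower. All 12 immediate early genes were lower in acinar cells than in E15.5 Progenitor cells, with list means of 8.28 in acinar and 11.69 in Progenitor cells.

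Neighbouring chemokine genes did not all share a pattern. On chromosome 5, Cxcl15 lies between Cxcl3 and Cxcl1, yet its mean was highest in acinar cells (8.62) and lowest in P0 beta cells (4.81), while Cxcl3 exceeded 100 in duct cells alone. On chromosome 8, Ccl22 and Ccl17 were higher in adult than in P0 beta cells and Cx3cl1, between them, was not called. Ccl17 measured 7.19, 7.08, 8.00 and 6.96 in duct cells, below all adult beta arrays.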
